A study of Arabidopsis thaliana with 4 samples.

Results

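TRB1 is a plant protein first known for binding telomeric DNA repeats. The intervals described here are centred inside protein-coding genes away from their ends, although some of them cover an end. They are the rows of the authors' list of genomic TRB1 intervals whose centre lay inside a nuclear protein-coding gene and more than 500 bp from the ends of all such genes. The rule selected 932 of 4995 intervals (18.7%, exact 95% interval 17.6 to 19.8), which are called gene-body intervals below, and the genes that hold them are called host genes. The other intervals were 2129 centred inside genes within 500 bp of an end, 1262 centred outside genes within 500 bp of an end, and 672 farther than that from genes.

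The study immunoprecipitated chromatin from Arabidopsis thaliana seedlings aged 14 days and sequenced the recovered DNA. The first approach used seedlings of genotype TRB1pro:TRB1-GFP, in which the TRB1 promoter drives TRB1 fused to green fluorescent protein, with a GFP-Trap A matrix, and wild-type seedlings on the same matrix as the control. The second used wild-type seedlings with the antibody anti-TRB1 (5.2), and wild-type seedlings without antibody as the control. Each of the 4 groups had 1 library, whole seedlings mix many cell types, and the sources name neither how many plants nor how many transgenic lines were used. The labels do not say whether the seedlings with the fusion also kept the unmodified TRB1 gene as the wild type has it.

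TRB proteins carry a Myb-type domain that binds DNA with telomere-like repeats and a domain related to linker histones. In Arabidopsis they are known both at chromosome ends and at short telomere-like motifs within the chromosome arms, and they have been linked to the recruitment of Polycomb complexes, which place a repressive histone mark along the bodies of genes. Promoters lie before a gene's start, whereas the gene body holds exons, introns and, at times, other genes. Motifs, histone marks and transcript levels were not analysed here.

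The values are the authors' 4 interval lists, not reads, so the depth of each library is unknown and no control signal can be set beside an interval. The genomic list holds positions only and is the sequence that the other 3 lists share. These are a replicate 1 list of 3975 peaks and a replicate 2 list of 7480 peaks, both with the authors' score in an unnamed unit, and a list of 24219 peaks named for the caller PePr, with the authors' p-value for each peak. Which approach is replicate 1 is not given. All of these scores and p-values are the authors' own, and with 1 library per group no test across replicates was possible. Exact intervals on shares cover counting error only.

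Over all genes the limit of 500 bp lay within a steady decline. Inside genes, the density of interval centres fell with every step away from the nearest gene end. It was 118 centres per Mb of gene sequence within 100 bp of an end, 49.8 between 400 and 500 bp, 43.2 between 500 and 600 bp, 23.5 between 900 and 1000 bp, and 3.76 beyond 2000 bp. In genes over 3000 bp alone the density was lower from the limit on: 39.9 and 41.0 per Mb in the last 2 steps of 100 bp before it (58 and 59 centres), and 25.2 and 26.04 in the first 2 after it (36 and 37 centres). Over the 38.2 Mb of gene sequence more than 500 bp from ends, there were 24.4 gene-body intervals per Mb, against 80.9 centres per Mb within 500 bp of an end. The same rule applied to the other lists chose 661 replicate 1 peaks (16.6% of that list), 1357 replicate 2 peaks (18.1%) and 4488 PePr peaks (18.5%).

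**Figure D1:**
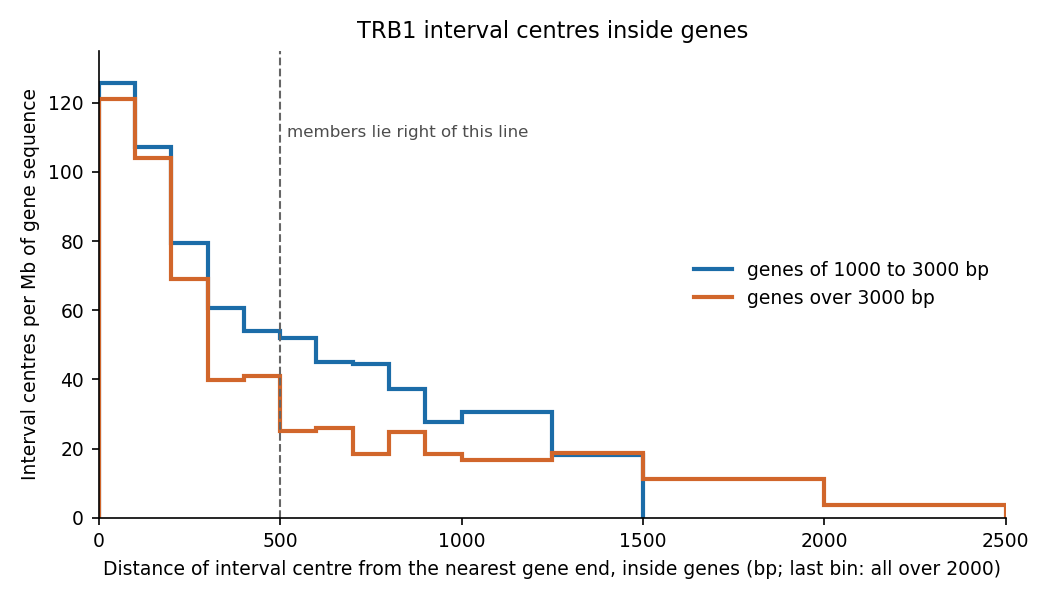
Density of genomic list intervals, as centres per Mb of gene sequence, against the distance of the centre from the nearest gene end, for genes of 1000 to 3000 bp and for genes over 3000 bp. Both lines start above 120 per Mb; at the dashed line at 500 bp that of genes over 3000 bp drops from 41.0 to 25.2 per Mb, while that of shorter genes goes from 54.0 to 51.8. Over all sequence beyond the line, genes over 3000 bp lie at 15.0 per Mb and shorter genes at 39.7 per Mb.

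Intervals on both sides of the limit are given here as a description. The 3 nearest inside it were in WRKY29, ZAT6 and AT4G36430, with centres 501, 502 and 503 bp from an end. WRKY29 encodes a WRKY transcription factor and ZAT6 a zinc finger protein. The 3 nearest on the other side were in AT5G43420, AT3G11280 and AT2G46200, at 499, 499 and 498 bp. In the authors' deposited replicate 1 list the first 3 had scores of 674, 3100 and 3100 and the other 3 had 3100, 3100 and 2819. In their replicate 2 list the corresponding scores were 782, 788 and 3100, and 3100, 3100 and 676.

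Most gene-body intervals did not lie far from a gene end. The median distance of the centre was 793.5 bp, 415 intervals (44.5%) lay within 750 bp, 279 (29.9%) lay beyond 1000 bp and 19 (2.04%) beyond 2000 bp. The farthest, at 3157 bp, was in AT4G33150 on chromosome 4. An interval is not a point: 214 (23.0%) covered a gene end although their centre was deep, 345 (37.0%) had an edge within 500 bp of an end without covering it, and 373 lay wholly more than 500 bp from all ends.

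Gene-body intervals were as wide at the median as the others but varied more. The median width was 850 bp in both, with quartiles of 510 and 1530 bp for gene-body intervals and 680 and 1190 bp for the other 4063. Because the list keeps only shared sequence, some intervals are remnants of peaks: 677 gene-body intervals (72.6%) were whole PePr peaks, against 83.3% of the others, and 128 (13.7%) had a width under 340 bp, the least of any PePr peak, against 6.97% of the others. The widest 5 spanned 3400 to 3740 bp, and each covered at least 1 gene end.

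These widest intervals lay over genes of lipid metabolism, chlorophyll synthesis and receptor signalling. They were in DLAH, which encodes a lipase of the DAD1-like family, LOX5, a lipoxygenase, BRL2, a receptor kinase related to the brassinosteroid receptor, PORA, a protochlorophyllide reductase that acts in greening, and AT1G04090. All 5 scored 3100 in replicate 1 and in replicate 2, per the authors' deposited lists. The BRL2 interval, chromosome 2 from 440641 to 444380 in the authors' list, had its centre 1814 bp from the nearest end of a gene of 3701 bp. The PORA interval, chromosome 5 from 21989883 to 21993410, had a PePr p of 3.92e-47 in the authors' deposited list.

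The peaks beneath the gene-body intervals were broad and often centred elsewhere. Each interval was matched to the replicate peak that overlapped it most. The median width of that peak was 2833.5 bp in replicate 1 and 2671.5 bp in replicate 2, against 2351 and 2106 bp for the other intervals. Among the others, intervals far from genes came close, with 2731 and 2418 bp. The centre of the matched peak also met the rule for 547 gene-body intervals in replicate 1 (58.7%) and 594 in replicate 2 (63.7%), and for 496 in both (53.2%). This was not particular to them. Intervals inside genes near an end had a peak centre of their own class in 60.0%, 62.8% and 51.6%. In replicate 1, 258 (27.7%) belonged to a peak centred inside a gene near an end, 98 (10.5%) to one centred outside genes near an end, and 29 (3.11%) to one far from genes.

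The centres of the replicate peaks were also set against the centre of each interval. Both replicate lists had a peak centre within 200 bp of the interval's centre for 226 gene-body intervals (24.2%, 21.5 to 27.1) and for 41.3% (39.8 to 42.8) of the others. Within 500 bp the shares were 43.6% and 57.5%. The others were not alike: intervals far from genes had 26.8% (23.5 to 30.3) and 44.5%, close to the gene-body intervals, and those inside genes near an end had 44.3% and 61.2%. The 932 intervals came from 826 distinct replicate 1 peaks and 829 distinct replicate 2 peaks, and 595 and 579 of them shared their peak with at least 1 other interval of the genomic list. They are therefore not 932 separate observations.

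Seen from the replicate lists, 472 of the 661 replicate 1 peaks centred deep in genes overlapped a gene-body interval (71.4%), and 518 of 1357 in replicate 2 (38.2%). The lists differ in length, which bears on these shares.

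Median scores of gene-body intervals were above those of the rest in the replicate 2 list and close to them in the replicate 1 list. Taken from the authors' deposited replicate 2 list, median scores were 1955 for gene-body intervals, 1514 for those inside genes near an end, 1359 for those outside genes near an end and 835 for those far from genes. Taken from the authors' deposited replicate 1 list, medians for gene-body intervals and for all others were 1973 and 1994, and the order of classes differed, with 2217 for intervals far from genes. Many peaks share the score 3100. In the authors' deposited lists 31.97% of gene-body intervals reached it in replicate 1 and 30.8% in replicate 2, against 33.4% and 23.4% of the others, and 19.5% against 14.8% reached it in both.

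**Figure D2:**
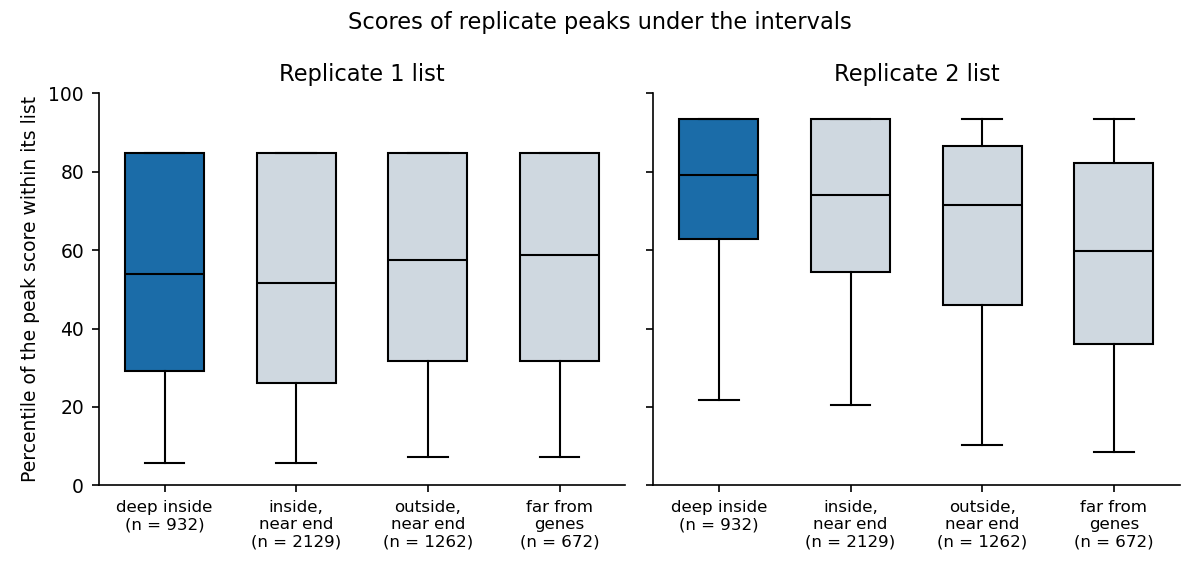
Percentile of the authors' score within each replicate list for the peak under each genomic list interval, by position of the interval. Boxes show quartiles and medians, whiskers the 5th and 95th percentiles; gene-body intervals (blue) have the median percentile 54.0 in replicate 1, near the others, and 79.2 in replicate 2, above the 3 other classes, and the boxes of all classes overlap.

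Between the replicate lists, the rank correlation of scores (Spearman's rho) was 0.476 over the 932 gene-body intervals, 0.443 over intervals inside genes near an end, 0.369 outside genes near an end and 0.228 far from genes. The points share peaks, so rho is a description. By the authors' deposited PePr p-values the gene-body intervals had larger p-values at the median than the others. The median of −log10 p was 12.1 against 13.1, and 576 (61.8%) had a p under 1e-10 against 67.5%. Among the others, intervals far from genes had still larger p-values, with a median of −log10 p of 10.1 and 50.9% under 1e-10 in the authors' deposited list. Among whole PePr peaks the medians were 13.0 and 13.2.

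The 8 gene-body intervals that ranked highest by the mean of both replicate lists were in AT4G11950, AT3G25670, 4CL5, AT1G53430, AT1G80450, AT1G15800, CAX7 and FLS2. 4CL5 encodes a 4-coumarate:CoA ligase of phenylpropanoid synthesis, CAX7 a cation exchanger and FLS2 the receptor kinase for bacterial flagellin. In the authors' deposited lists AT4G11950 had scores of 3214 and 3100 in replicates 1 and 2, AT3G25670 had 3166 and 3100, and 4CL5 had 3124.5 and 3100. The order among these rests on small differences above 3100. Peaks tied at 3100 shared 1 percentile within their list, 84.8 in replicate 1 and 93.6 in replicate 2. CAX7 and FLS2, with mean percentiles of 90.8 and 89.7, therefore ranked above intervals with 3100 in both lists, at 89.2. The ranking thus depends on how ties at 3100 were treated. FLS2 owed its place to replicate 1, with 3228 there and 1978 in replicate 2 in the authors' deposited lists.

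The 8 with the smallest PePr p lay in 7 genes, since LARP6c held 2 of them. LARP6c encodes a La-related RNA-binding protein. Its intervals, chromosome 3 from 6601441 to 6602630 and from 6602801 to 6603820, had p-values of 6.63e-79 and 7.06e-51 in the authors' deposited PePr list and the score 3100 in both replicate lists. The other genes were AT2G42990 (p of 1.99e-58), the P450 gene CYP71B31 (3.14e-52), AT5G48900 (7.39e-51), AT5G61550 (3.16e-50), ILL6, which encodes an enzyme that acts on auxin and jasmonate conjugates (9.00e-50), and AT3G50230 (1.55e-49), all from the authors' deposited list. A small p did not always go with a high score: AT5G48900 had 1323 in replicate 1 and 592 in replicate 2 in the authors' deposited lists. The CYP71B31 interval was centred 877 bp inside its gene, but the replicate peaks over it were centred far from genes in both lists.

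The 932 intervals lay in 847 host genes, 3.67% of the 23063 nuclear protein-coding genes over 1000 bp, 4.2% of the 14437 over 2000 bp and 3.09% of all 27444. There were 766 hosts with 1 interval, 74 with 2 and 7 with 3, and 3 intervals lay in a pair of overlapping genes. Host genes were 2565 bp long at the median, against 2332 bp for all genes over 1000 bp. By chromosome the counts were 256, 112, 168, 167 and 229 from chromosome 1 to 5. Per Mb of gene sequence over 500 bp from ends the density ran from 19.7 on chromosome 2 to 28.5 on chromosome 4.

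A longer gene body did not hold intervals in proportion to its length. The share of genes with a gene-body interval was 1.47% (1.12 to 1.89) at 1000 to 1500 bp, 3.89% at 1500 to 2000 bp and 4.63% (3.93 to 5.42) at 2500 to 3000 bp, and it was 2.23% (1.12 to 3.96) over 7000 bp. Per Mb of eligible sequence the density fell in every step of length, from 63.1 to 2.73. The contrast between lengths was small near gene ends: within 500 bp of an end the density was 86.1 per Mb in genes of 1000 to 3000 bp and 76.4 per Mb in longer genes, whereas beyond 500 bp it was 39.7 and 15.0.

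**Figure D3:**
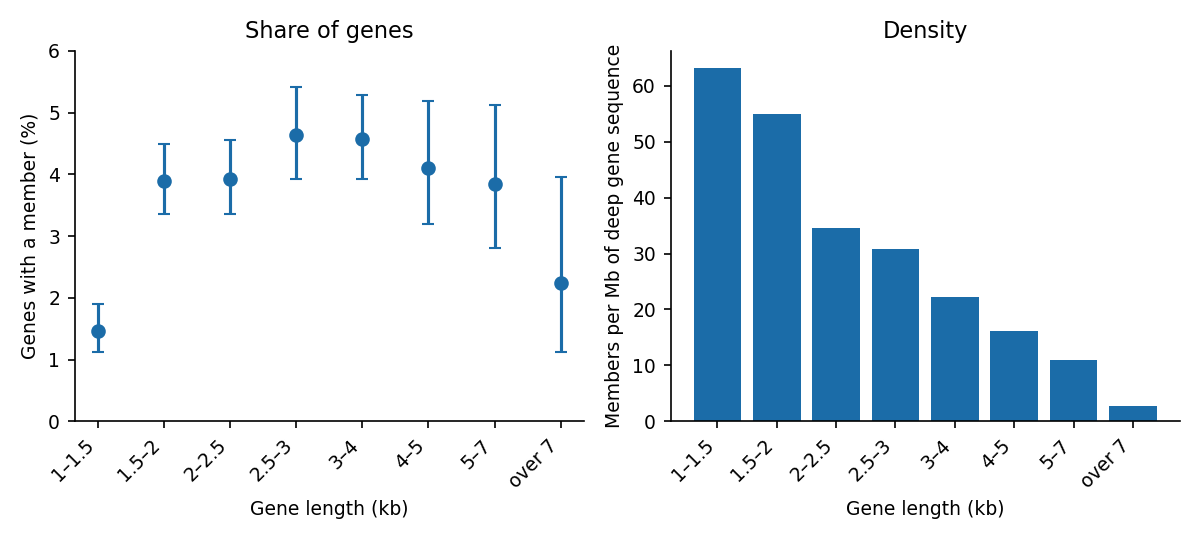
Left, share of genes of each length class that hold at least 1 gene-body interval, with exact 95% intervals; right, gene-body intervals per Mb of gene sequence more than 500 bp from all ends. The share is highest between 2500 and 4000 bp, at 4.63% and 4.57%, while the density falls from 63.1 to 2.73 per Mb.

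Many hosts also had an interval at an end. Another interval was centred within 500 bp of an end in 360 of 847 hosts (42.5%, 39.1 to 45.9) and in 15.0% (14.6 to 15.5) of the 22216 other genes over 1000 bp. The share over all genes of that length was 16.1%. The interval at an end can lie in the same replicate peak as the gene-body interval. Of the 932, 595 in replicate 1 and 579 in replicate 2 shared their peak with another genomic list interval of any class. In 109 hosts (12.9%, 10.7 to 15.3) a neighbouring gene was a host too, against 5.81% (5.53 to 6.09) of the 26597 other nuclear protein-coding genes, short genes included. Those hosts formed 48 neighbouring pairs, 3 runs of 3 genes and 1 run of 4. The run of 4 was CYP76C4, CYP76C1, CYP76C2 and CYP76C3 on chromosome 2, related P450 genes side by side. Their 4 intervals lay in 2 peaks of each replicate list. In some other runs, such as AT3G50270 to AT3G50290 and the pair CYP709B2 and CYP709B1, all intervals lay in 1 peak of each list. Such hosts are not separate observations, which the exact intervals in this paragraph do not take into account. The runs of 3 were FRO1, CYP86A4 and GPAT4, which encode an iron reductase, a fatty acid hydroxylase and an acyltransferase, the genes AT3G50270 to AT3G50290, and MEE62 with the calcium-signalling kinase genes CIPK19 and CIPK20.

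Where a gene held several intervals, they mostly lay within 1 broad peak. Of the 81 hosts with more than 1 interval, 75 had all of them in a single peak of each replicate list, and 2 had each in a separate peak of both. The hosts with 3 were SULTR1;2, a sulphate transporter of roots, SEOa, a filament protein of phloem sieve elements, ABCB2, an ABC transporter, ATCSLA09, a glucomannan synthase of the cell wall, AT5G04310, the flagellin receptor gene FLS2, and MUM2, a β-galactosidase of seed mucilage. The 3 SULTR1;2 intervals were 340, 340 and 510 bp wide and lay in 1 replicate 1 peak that ran from 622 bp inside the gene to past its other end. In ABCB2 the first of the 3 was 8 bp wide and the others 680 bp each. All 3 had the scores 907.8 in replicate 1 and 1613 in replicate 2 in the authors' deposited lists. MUM2 differed between lists: its first interval had 3100 in replicate 1 and 273 in replicate 2, and its other 2 had 2957 and 3100, in the authors' deposited lists.

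**Figure D4:**
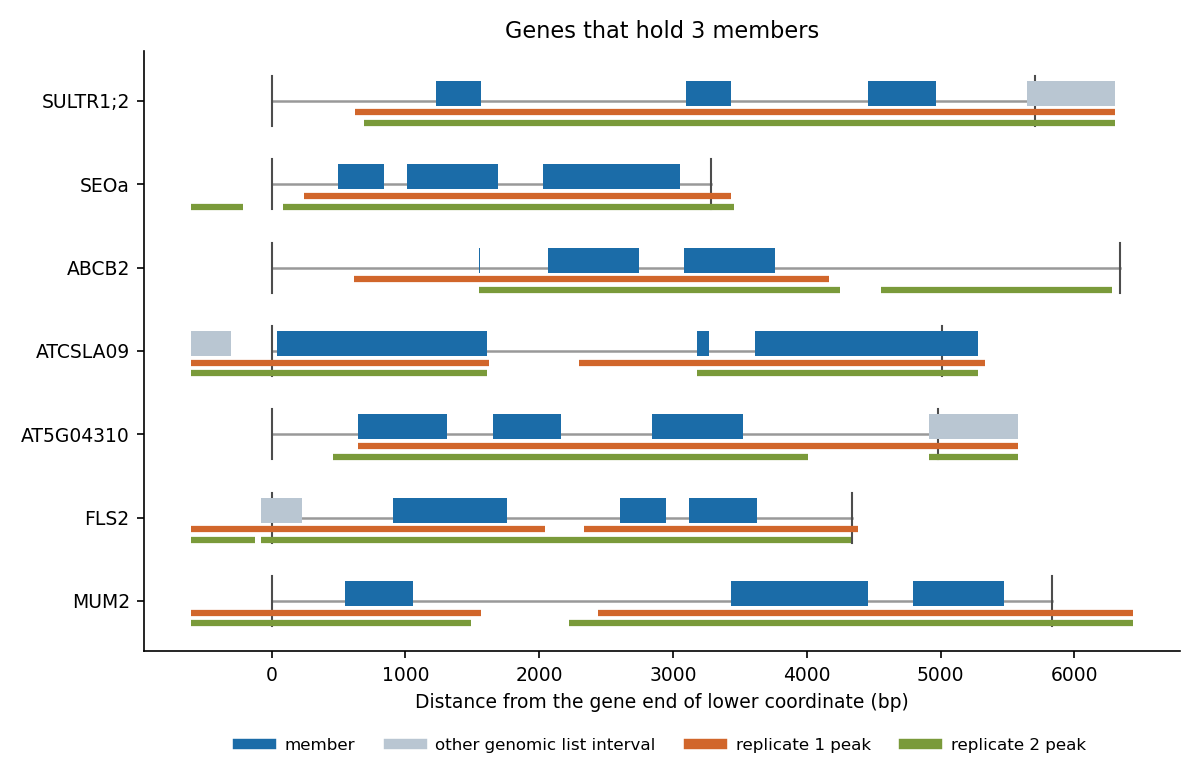
The 7 genes that hold 3 gene-body intervals (blue, called members in the drawing), with replicate 1 and replicate 2 peaks as lines and other genomic list intervals in grey, against the distance from the gene end of lower coordinate in bp. Peaks are cut 600 bp outside the gene and the 8 bp interval in ABCB2 is drawn 12 bp wide; in SULTR1;2 and SEOa 1 peak of each replicate list spans all 3 intervals, and the direction of transcription is not shown.

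Among 18 gene lists the hosts were most frequent in genes of transport, of signalling at the cell surface and of oxidative metabolism. The lists were found by symbol and description, so they hold only part of each family, and a list's share is set beside the 3.67% of all genes over 1000 bp. The exact interval of the share lay above 3.67% for 5 lists: ion channels and antiporters with 16 of 110 genes (14.5%, 8.55 to 22.5), ABC transporters with 14 of 125 (11.2%, 6.26 to 18.1), receptor kinases and receptor-like proteins with 24 of 246 (9.76%, 6.35 to 14.2), cytochrome P450 genes with 22 of 231 (9.52%, 6.07 to 14.1) and homeobox factors with 9 of 99 (9.09%, 4.24 to 16.6). It lay below 3.67% for 0 lists. No test of these lists was made, and the differences are described only.

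Ion channels and antiporters had the highest share. Their hosts were 7 CHX antiporters of monovalent cations (CHX2, CHX6B, CHX9, CHX10, CHX16, CHX17 and CHX25), 3 MSL mechanosensitive channels (MSL4, MSL5 and MSL6), 3 glutamate receptor-like channels (GLR1.1, GLR2.7 and GLR2.9), the cyclic nucleotide-gated channels CNGC8 and CNGC16, and the anion channel SLAH2. They held 20 intervals in 16 peaks of each replicate list. The CHX16 interval, chromosome 1 from 23816151 to 23818190, had the score 3100 in both replicate lists and a p of 2.97e-35 in the authors' deposited lists. The wider MSL4 interval had 3100 in both and a p of 2.37e-29 in the authors' deposited lists, although the replicate peaks over it were centred outside genes. CHX25 was lower, with 689 in replicate 1 and 1592 in replicate 2 in the authors' deposited lists. Another interval lay at an end in 26.4% of these genes, against 16.1% of all genes.

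ABC transporters, which move diverse compounds across membranes at the cost of ATP, divided by subfamily. There were 8 hosts among 28 genes of the B subfamily and 6 among 43 of the G subfamily, and 0 among 15 of the C subfamily and 0 among 12 of the A subfamily. A count of 0 of 15 and of 12 allows shares of up to 20% and 25%, so these subfamilies are not shown to differ from the background. The subfamilies were chosen after their values had been seen. PGP10, of the B subfamily, had an interval centred 2570 bp from the nearest end, with the score 3100 in both replicate lists and a p of 1.21e-45 in the authors' deposited lists. For ABCG9 the values in the authors' deposited lists were 1685, 3100 and 1.99e-24.

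P450 genes, which encode haem enzymes that oxidise hormones, lipids and defence compounds, had 9.52% of their members as hosts, and 10.8% had another interval at an end, against 16.1% of all genes. Their density of 81.1 gene-body intervals per Mb was the highest of the 18 lists, against 24.4 over all genes. The density falls with gene length, and the lists differ in length. P450 genes had a median length of 2064 bp, and genes of 1500 to 2000 bp held 54.9 per Mb. Those of 2000 to 2500 bp held 34.6. Hosts included DWF4, an enzyme of brassinosteroid synthesis, FAH1, a hydroxylase of lignin precursors, and CYP83B1, of glucosinolate synthesis. CYP76 had 4 hosts among 8 genes and CYP86 3 among 10, whereas CYP705 had 0 among 24, which allows up to 12.5%. The 23 P450 intervals came from 18 replicate 1 peaks. CYP709B1 had the score 3100 in both replicate lists and a p of 1.76e-43 in the authors' deposited lists, and its neighbour CYP709B2 had 3100, 3100 and 2.14e-25. These 2 intervals lay in 1 peak of each replicate list, centred inside a gene near an end. Their scores are therefore those of the same peak.

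Receptor kinase hosts covered several roles. FLS2 detects flagellin, BRL2 and the CLAVATA-type kinase gene BAM3 act in vascular tissue, ERL1 acts in stomatal patterning and HSL2 in floral organ shedding. SRF5 held one of the widest intervals of the list, 3230 bp, with the score 3100 in both replicate lists and a p of 2.80e-42 in the authors' deposited lists. The lectin kinase gene AT5G42120 had a p of 5.70e-36 but scores of 1141 and 1374 in the authors' deposited lists. Lectin receptor kinases had 6 hosts among 45 genes and PERK kinases 3 among 14. Receptor-like proteins, which lack a kinase domain, had 1 among 50 and wall-associated kinases 0 among 12, which allows up to 25%.

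Among transcription factors, homeobox genes had 9 hosts and NAC genes 7 of 97 (7.22%, 2.95 to 14.3). The homeobox hosts included 4 of 16 genes of the HD-ZIP IV class, which acts in the epidermis: PDF2, ANL2, HDG1 and the gene named HB-7 here. HB-7 had the score 3100 in both replicate lists and a p of 3.49e-32 in the authors' deposited lists, and PDF2 had 1277, 2049 and 1.20e-36. ANL2 and HDG1 were uneven, with 1168 and 3213 in replicate 1 but 206 and 116 in replicate 2 in the authors' deposited lists. Of the NAC hosts, NAC011 had 3100 in both and NAC094 had 2835 and 3100 in the authors' deposited lists. FEZ, which controls divisions in the root cap, was also a host.

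Among genes over 1000 bp, the other lists of transcription factors were near the background or below the count that could be told from it. The MYB and bHLH list had 6 hosts of 174 genes (3.45%) and the WRKY list 2 of 71 (2.82%). Hosts with other symbols, such as EGL3 and PIL6, were outside these lists, so the shares are those of the listed genes. These shares depended on gene length. Among genes over 2000 bp they were 5 of 63 (7.94%) and 0 of 38, against 4.2% of all genes of that length. MYB30, a regulator of the hypersensitive response, had an interval of 2839 bp with scores of 703 and 1184 in the authors' deposited lists, and bHLH071 had 732 and 512. WRKY15 had 1730 and 1381 in the authors' deposited lists. There were 0 hosts among the 73 listed MADS-box genes, which allows a share of up to 4.11%. The AP2/ERF list had 0 of 52, which allows up to 5.77%, so neither list could be told from 3.67%. Before its name pattern was tightened, after host counts had been seen, the AP2/ERF list had 8 hosts of 160 genes. Its 0 therefore describes the listed genes only, and WRI1, a host with 2 intervals, was outside the list.

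Genes of the translation machinery, named in the title of the series, carried intervals at their ends. The share of the listed genes with a gene-body interval could not be told from that of all genes. Of the 70 listed genes, 34 (48.6%) had an interval at an end, against 16.1% of all genes, and 2 (2.86%, 0.348 to 9.94) had a gene-body interval. Per Mb they held 24.1 gene-body intervals, against 24.4 over all genes. That value rests on 2 intervals, and these genes are short, with a median length of 1849 bp. Genes of 1500 to 2000 bp held 54.9 per Mb. The listed hosts were RPL23AA, which encodes a protein of the large ribosomal subunit, and EIF3G1, a subunit of an initiation factor. Hosts without a family symbol, such as AT5G46430, were outside the list. The RPL23AA interval had scores of 2391 and 3100 in the authors' deposited lists, and its replicate peaks were centred near a gene end. The EIF3G1 interval was 83 bp wide, and the replicate peaks over it were centred outside genes.

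Telomere and TRB genes had 1 host of 23, TRP1, which encodes a telomere repeat-binding protein. Its interval was 340 bp wide, with scores of 829 and 228 in the authors' deposited lists, both below the medians of the gene-body intervals. Polycomb and chromatin genes had 3 hosts of 123 (2.44%, 0.506 to 6.96): EMF1, a plant-specific partner of Polycomb complexes, HMGB3, a chromatin protein, and ASHR2. EMF1 scored 3100 in each replicate list with a p of 3.60e-08, and HMGB3 scored 1261 and 164, per the authors' deposited lists. The replicate peaks over the EMF1 interval were centred far from genes in both lists, and those over HMGB3 outside genes near an end. Auxin genes had 2 of 120 (1.67%), YUC9, an enzyme of auxin synthesis, and IAA16, a repressor of auxin response. The YUC9 interval was 2550 bp wide, with 3100 and 2790 and a p of 2.24e-36 in the authors' deposited lists.

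The remaining lists were small or low. Cellulose synthase and related genes had 4 hosts of 52 (7.69%, 2.14 to 18.5), CSLD6, CSLG1, CSLG3 and ATCSLA09, and CSLD6 had scores of 1734 and 3100 in the authors' deposited lists. NLR resistance genes had 1 of 20, RLM3, with 3100 and 2434 in the authors' deposited lists. Pentatricopeptide repeat genes had 1 of 50, BIR6, through an interval of 7 bp under replicate peaks centred outside genes. Kinesins and myosins had 0 of 29, which allows up to 10.3%, although they are long, with a median of 6154 bp.

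**Figure D5:**
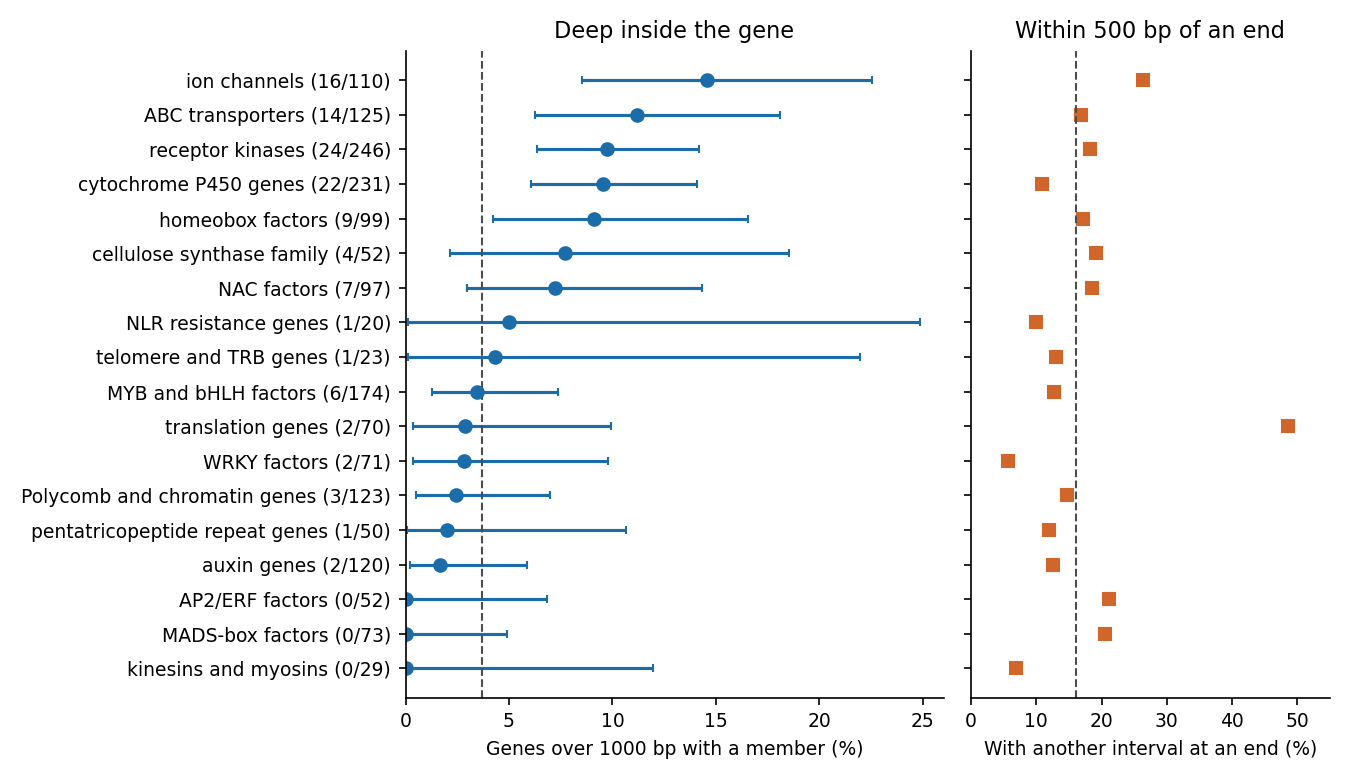
Left, percentage of genes over 1000 bp in each gene list that hold a gene-body interval (points, with exact 95% intervals and counts of hosts and genes beside the names); right, percentage of the same genes with another interval centred within 500 bp of an end. Dashed lines mark all genes, 3.67% and 16.1%; the 5 uppermost intervals on the left lie above the line, and translation genes stand at 48.6% on the right and 2.86% on the left.

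Part of these shares rests on intervals that reach towards a gene end. With only the 373 intervals wholly more than 500 bp from ends, 1.46% of genes over 1000 bp were hosts. The ion channel share was then 9.09%, ABC transporters 6.40%, receptor kinases 4.07%, homeobox factors 4.04% and P450 genes 3.03%. NAC, WRKY and auxin genes had 0 hosts of 97, 71 and 120 by this rule. With only the 496 intervals whose replicate peaks were also centred deep in a gene in both lists, the share over all genes was 1.88% and those of the same 5 lists were 7.27%, 9.60%, 5.69%, 5.05% and 5.63%. NAC genes then had 4 of 97 (4.12%), WRKY and auxin genes 1 each, and Polycomb and chromatin, translation, telomere and TRB, and pentatricopeptide repeat genes 0.

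Annotated genes that do not encode proteins (non-coding RNA genes and pseudogenes) were also set against the intervals. They cover 1.51% of the gene sequence over 500 bp from ends, and 46 intervals (4.94%, 3.64 to 6.53) overlapped one by at least 1 bp, against 7.28% of intervals inside genes near an end, 18.8% outside genes near an end and 27.5% far from genes. The overlapped gene lay wholly inside the host for 26 of the 46, partly inside it for 9, and outside it for 11 whose interval reached past a gene end. Of the 46, 32 overlapped a long non-coding RNA gene, 5 a small nucleolar RNA gene, 3 a tRNA gene and 3 a microRNA gene. The centre lay inside the other gene in 12. An interval covers more sequence than a point, so its chance of overlap exceeds the covered share, and the values per class are not adjusted for width.

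The microRNA genes were MIR156j and MIR778, each inside the host, and MIR847, outside it. The MIR156j interval, chromosome 2 from 17587691 to 17589050, was centred in SPL9, a factor of the change from juvenile to adult growth, and had scores of 1670 and 778 in the authors' deposited lists. One snoRNA interval was narrow, 340 bp in AT5G46430, with 2818 and 3100 in the authors' deposited lists. The interval in AT1G79520 overlapped a pair of snoRNA genes, with 1745 and 2085 in the authors' deposited lists. A tRNA gene next to the host was overlapped by the interval in PSBO1, which encodes a protein of the oxygen-evolving complex of photosystem II, with 2446 and 1804 in the authors' deposited lists.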

How the data were processed

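Per the labels, 4 chromatin immunoprecipitation libraries of seedlings aged 14 days, 1 per group, were sequenced; the submitters' processing notes name Bowtie2 2.2.2, MACS, SAMtools and bedtools and the builds TAIR9 and TAIR10, without roles. For thresholds, controls, pooling of libraries and the build behind each list, nothing is stated. The authors deposited a score per replicate list peak on an unstated scale, and a p-value and adjusted p-value per PePr peak, of which −log10 of the deposited p-value was computed here. Printed positions are the authors' own, in 1-based form.

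Centres were placed among the 27444 nuclear protein-coding genes of a RefSeq table of TAIR10.1, used for names and placing only (a step tested on simulated intervals with known positions). It gives no strand or exons, so both ends of a gene count alike and exon or intron is not stated. Lists overlapped from 1 bp; each interval took the score or p of the peak with the largest overlap. Shares have exact (Clopper-Pearson) 95% intervals (Python 3.11.15, SciPy 1.17.1); for a count of 0 the limit is 3 counts. Members and gene lists were chosen with earlier results of these data known. After host counts had been seen, list patterns were tightened, the CHX pattern was widened and 68 further wrongly matched genes were removed by hand; subfamilies, overlapping genes and genes outside the naming rule were also picked then. That rule took the 8 intervals of highest mean rank, the 8 of smallest p, the 5 widest, the 5 hosts with most intervals, up to 2 hosts per list and the 3 on each side of the limit. No table column of other samples was used.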

Additional observations from a re-analysis of the deposited data

How the results depend on the processing

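No paired analysis was possible because the lists hold no values per library and each group has 1 library; leaving out a replicate was not possible for the same reason. The telomeric motif and the position along the direction of transcription were not run, since no sequence or strand was used. The number of gene-body intervals was 1649 with a limit of 250 bp, 279 with 1000 bp, 373 when the whole interval had to be over 500 bp from ends, and 447 when a peak at or above the median score was required in both replicate lists. It was 677 among whole PePr peaks. The share of peaks that met the rule was 16.6% in the replicate 1 list, 18.1% in replicate 2 and 18.5% in PePr. Both replicate peak centres lay within 500 bp for 43.6%. In the authors' deposited replicate 1 list, gene-body intervals were 21.5 below the others in median score (a value of -21.5), and with peaks at or above the most frequent score left out they were 13.97 above, 1384 against 1370; the sign is therefore not fixed by these data, and the replicate 2 difference kept its sign. Hosts were 3.09% of all genes, and 4.2% of genes over 2000 bp. The centre lay inside another annotated gene for 12 intervals rather than 46.

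As first written, the AP2/ERF list had 8 hosts of 160 genes and the pentatricopeptide repeat list 3 of 151. Tighter name patterns made these 0 of 52 and 1 of 50. With the first patterns, the receptor kinase, ABC transporter, P450 and ion channel lists had shares of 9.51%, 10.4%, 9.52% and 14.0%. The ratio of a list's share to that of all genes was 3.96 for ion channels, 3.05 for ABC transporters, 2.66 for receptor kinases, 2.59 for P450 genes and 2.48 for homeobox factors. With 3 stricter choices of intervals, which were added after the data had been seen, these ratios lay at 3.87 to 6.22, 3.47 to 5.11, 2.52 to 3.03, 2.07 to 2.998 and 2.69 to 2.82. The stricter choices are parts of the same gene-body intervals, and their counts are small. With whole intervals over 500 bp from ends they were 7 of 231 P450 genes and 4 of 99 homeobox genes. No exact intervals are given for these shares, so whether they still lie above the background is not shown. Neither read depth nor the spread between plants is known, so weak intervals cannot be told from absent ones.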

Other observations

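Families defined by symbol letters, with at least 10 genes over 1000 bp, were looked through after the values had been seen; they number 152, and 82 of them had 0 hosts. The share of hosts among all genes over 1000 bp was 3.67%. Nitrate transporters had the highest share of these families, with 5 hosts of 14 genes: NRT1.1, NRT1.7, NRT1.8, NRT1.9 and NRT2.3. NRT1.1, a transporter and sensor of nitrate, had an interval of 1190 bp centred 1806 bp from an end, with scores of 2673 and 708 in the authors' deposited replicate lists. NRT2.3 had 1555 and 3155 in the authors' deposited lists. Sulphate transporters had 2 hosts of 10, SULTR1;2 and SULTR1;3, whose intervals scored 3100 in replicates 1 and 2 of the authors' deposited lists.

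Glycosyltransferases of the UGT family, which attach sugars to hormones and secondary compounds, had 9 hosts of 58 genes (15.5%, against 3.67% over all). They included the neighbours UGT73B2 and UGT73B3, whose intervals scored 3100 in replicates 1 and 2 of the authors' deposited lists, and UGT73C6, with 743 and 499 there. The UGT73B2 and UGT73B3 intervals lay in 1 peak of each replicate list, so they share 1 score. Families were picked from many by their share, so a high share here is a description of these genes and carries no test.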
